A study of Gallus gallus with 858 samples.

Results

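IRX1 (ENSGALG00000030991) and RIPPLY3 (ENSGALG00000054080) are 2 of the 24356 genes counted in single cells of the chick otic-epibranchial territory, the strip of cranial ectoderm beside the hindbrain that gives rise to the inner ear and to the epibranchial ganglia. Both genes were chosen by their measured levels in these same cells, which were higher in early progenitors than later. Their levels were followed by stage and, within each stage, in cells with and without GATA3 (ENSGALG00000029270). Values of stage and of GATA3 class therefore describe how the genes were chosen and carry no test. Their spread over cells, their overlap in the same cells, their relation to otic and epibranchial markers and the genes most like them are described alongside.

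IRX1 encodes a homeodomain protein of the Iroquois family, whose members pattern neural and placodal ectoderm. In frog embryos irx1 acts in the preplacodal ectoderm, the band of head ectoderm from which all cranial placodes form. RIPPLY3 encodes a small repressor that binds Groucho/TLE corepressors through a short tryptophan-containing motif and turns T-box activators such as Tbx1 into repressors. It is known from mouse pharyngeal development and from frog preplacodal ectoderm, where retinoic acid controls it. GATA3 is a zinc finger factor of non-neural and placodal ectoderm and of the later otic placode.

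Chick embryos were electroporated at the head fold stage with the pTK-Pax2E1-EGFP plasmid, in which a Pax2 enhancer drives EGFP, and were then grown to 3 stages. These were ss8 (8 to 9 somite pairs, the otic-epibranchial progenitor or OEP stage), ss11 (11 to 12, early placode) and ss15 (14 to 15, late placode). Live EGFP+ cells of the head were sorted singly into plates and sequenced by SmartSeq2, a full-length method without molecular identifiers. All embryos were electroporated and had no other treatment, and strain and number of embryos are not given in the sources used here. No embryo is named for any cell, so each stage counts as 1 sample, and no value here is a test between stages. By the study's methods each stage was its own batch, so stage and batch cannot be told apart in any comparison of stages. ss8 was sequenced single-end on another instrument and sorted with another viability dye than ss11 and ss15. ss11 and ss15 were separate sorts on 1 type of instrument.

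Of 858 libraries, 8 pairs from ss8 plate 1 were nearly identical (r = 0.996 to 0.998 between their log2 values, against at most 0.880 for any other pair) and were added together. Cells with at least 500000 counted reads and 1000 genes were kept, which left 781 of 850 cells, with 7 left out of ss8, 22 of ss11 and 40 of ss15. The median kept cell had 1252786 reads and 7456 genes in the ss8 plates, 1031422 reads and 4999 genes in the ss11 plates, and 843786 reads and 4863 genes in the ss15 plates. PAX2 carries no identifier in the gene names used here, so the Pax2+ label was checked on other markers. Levels are in CPM, the reads of a gene per 1000000 counted reads, and a gene is said to be held by a cell in which it had 10 CPM or more. GATA3 was held by 87 ss8 cells (31.9%, 26.4 to 37.8), by 42.7% of ss11 cells (36.7 to 48.98) and by 47.97% of ss15 cells (41.6 to 54.4). These are called GATA3-high and the others GATA3-low. Intervals of shares are exact binomial and those of pooled CPM exact Poisson, both at 95%, and both cover counting error only.

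The GATA3-high cells of ss8 carried placodal genes, and few of them held the later markers SOHO-1 and VGLL2. The placodal homeobox gene DLX6 was held by 70.1% of them, against 4.84% of GATA3-low cells, and DLX3 by 33.3%, against 2.69%. LMX1A, a LIM homeobox gene of otic progenitors, was held by 54.02% of the GATA3-high and 32.3% of the GATA3-low cells. TFAP2E, an AP-2 factor of the epibranchial side, was held by 56.3% and 7.53%. Otic markers did not all go this way. DACT2 was at 253.1 CPM in GATA3-high and 390.7 CPM in GATA3-low cells, and the median sum over 5 otic markers was 279.3 and 307.1 CPM. The later markers SOHO-1 (otic homeobox) and VGLL2 (epibranchial cofactor) were held by 13.8% and 3.45% of the GATA3-high cells. Other markers were held by more of them. SOX10, which the study also lists as activated later, was held by 28.7% of GATA3-high and 18.3% of GATA3-low cells. The epibranchial marker ISL1 was held by 16.1 and 4.84%, PDLIM1 by 90.8 and 77.4%, NELL1 by 77.01 and 34.9%, and PRDM1 by 70.1 and 25.3%. Cells with neural and neural crest markers were part of the sort. The neural marker ZIC2 was held by 11.5% of GATA3-high and 77.4% of GATA3-low cells at ss8, and ZIC1 by 2.30 and 21.5%. IRX1 and RIPPLY3 were not split by these neural markers. The crest marker DRAXIN was held by 54.02% of GATA3-high and 80.6% of GATA3-low cells at ss8. PAX7 (21.8 and 47.3%), FOXD3 (4.60 and 24.7%) and EDNRB (24.1 and 43.5%) had the same order. TFAP2B (47.1 and 31.7%) and RXRG (31.03 and 16.7%) went the other way, so the crest markers did not all mark GATA3-low cells. At least 3 of 6 crest markers (PAX7, FOXD3, TFAP2B, DRAXIN, RXRG, EDNRB) were held by 20 GATA3-high (22.99%, 14.6 to 33.2) and 77 GATA3-low cells (41.4%, 34.2 to 48.8) at ss8. The counts were 6 and 51 cells at ss11 (5.36% and 34%), and 11 and 32 cells at ss15 (9.32% and 25%).

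IRX1 was held by nearly every GATA3-high cell at ss8 and by a minority of cells later. Over the 87 GATA3-high ss8 cells it ran from 0 to 696 CPM with a median of 141.8 CPM, and 79 cells (90.8%, 82.7 to 95.9) held it. In the GATA3-high ss11 cells the lowest was 0, the median 0.357 and the highest 218.6 CPM, and 41 cells (36.6%, 27.7 to 46.2) held it. In the GATA3-high ss15 cells the median was 0 and the highest 297 CPM, and 32 cells (27.1%, 19.3 to 36.1) held it. The cell distributions overlap, but the middle of the ss8 cells lies where only the highest later cells are.

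**Figure D1:**
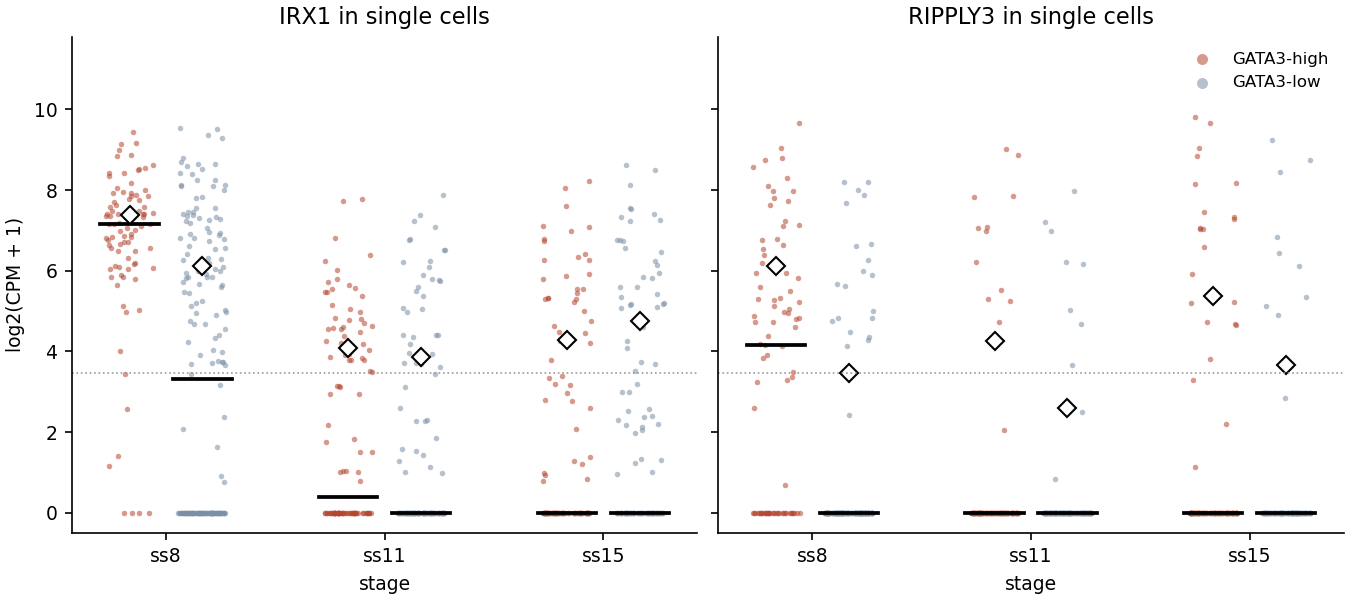
IRX1 (left) and RIPPLY3 (right) in each kept cell as log2(CPM + 1), by stage, with GATA3-high cells left of GATA3-low cells. Each point is 1 cell, the black line the median, the open diamond the pooled CPM of the group and the dotted line 10 CPM. The ss8 GATA3-high cells are the only group whose IRX1 median (141.8 CPM) lies above 10 CPM, and the only one whose RIPPLY3 median (16.8 CPM) does.

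Pooled over cells, IRX1 in GATA3-high cells was at 16.1 CPM at ss11 (interval 15.4 to 16.8), against 166.98 CPM at ss8 (164.6 to 169.3). The log2 fold, taken here and below on pooled CPM + 1, was -3.30. Of 7493 genes measured in that comparison, 17% were at least 2-fold lower at ss11, the median log2 fold was -0.23 and 48 had a lower fold than IRX1. A gene counted as measured with 20 CPM pooled and 10 CPM in 20% of cells of either group, a filter that both genes passed here through ss8. The 3 ss8 plates gave 175.1, 158.1 and 170.9 CPM in GATA3-high cells, and the log2 fold against each plate alone averaged -3.30 ± 0.08 (SD, n = 3 plates). These folds share the same ss11 cells, so the SD covers the spread of the ss8 plates only. Over all kept cells IRX1 was at 14.7 CPM at ss11, against 99.6 CPM at ss8 (log2 fold -2.68, with 15.5% of genes at least 2-fold lower).

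In GATA3-high cells IRX1 at ss15 stood near its ss11 level. It was at 18.4 CPM in them (17.6 to 19.3), against 16.1 CPM at ss11, a log2 fold of 0.18. In this comparison 0.883% of 6797 measured genes were at least 2-fold higher, and neither IRX1 nor RIPPLY3 passed the filter on low values. Over all kept cells IRX1 was at 22.3 CPM at ss15, against 14.7 CPM at ss11 (log2 fold 0.57). With cells of at least 1000000 reads and 2000 genes only (36 GATA3-high cells at ss15 and 60 at ss11) the fold turned to -0.46.

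GATA3-low cells held less IRX1 at ss8, and the classes lay closer together later. At ss8 the GATA3-high cells had a pooled 166.98 CPM and the GATA3-low cells 68.1 CPM (67.1 to 69.2), a log2 fold of 1.28, where 5.87% of 7444 measured genes were at least 2-fold higher. The fold was 0.88, 1.13 and 1.73 on the 3 plates. In the GATA3-low ss8 cells IRX1 ran from 0 to 748 CPM with a median of 8.94 CPM, and 92 cells (49.5%, 42.1 to 56.9) held it. The highest IRX1 value of all kept cells was thus in a GATA3-low cell.

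At ss11 IRX1 was at 16.1 CPM in GATA3-high and 13.6 CPM in GATA3-low cells (log2 fold 0.23). Of 6897 genes measured there, 1842 had a higher fold than IRX1 and 3.52% were at least 2-fold higher. The shares of cells that held IRX1 were 36.6% and 22% (15.7 to 29.5). At ss15 its pooled order was the other way, 18.4 CPM in GATA3-high and 25.8 CPM in GATA3-low cells (24.9 to 26.8). The log2 fold was -0.47, where 875 of 6761 measured genes had a lower fold and 3.06% were at least 2-fold lower. The shares there were 27.1% and 27.3% (19.8 to 35.9).

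By pooled CPM, the stages had the same order within GATA3-low as within GATA3-high cells. IRX1 was at 13.6 CPM in them at ss11, against 68.1 CPM at ss8 (log2 fold -2.24), where 16.2% of 7313 measured genes were at least 2-fold lower. At ss15 it was at 25.8 CPM, a log2 fold of 0.88 against ss11, where 1.59% of genes were at least 2-fold higher.

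RIPPLY3 had the larger GATA3-high against GATA3-low fold of the 2 genes at each stage. At ss8 it was at 68.9 CPM in GATA3-high cells (67.4 to 70.5), against 10.1 CPM in GATA3-low cells (9.72 to 10.5). The log2 fold was 2.65, where 5.87% of 7444 measured genes were at least 2-fold higher and 69 had a higher fold. RIPPLY3 passed the filter on low values here through the GATA3-high cells only, so its rank is a description and no support for the fold. The fold was 2.21, 2.71 and 2.64 on the 3 plates, where GATA3-high cells had 57.9, 88.7 and 52.2 CPM. RIPPLY3 ran from 0 to 810 CPM with a median of 16.8 CPM over the 87 GATA3-high cells, and 48 of them (55.2%, 44.1 to 65.9) held it. In GATA3-low cells the median was 0 and the highest 295 CPM, and 20 cells (10.8%, 6.69 to 16.1) held it.

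Later, RIPPLY3 was a gene of few cells. In GATA3-high cells it was at 18.2 CPM at ss11 (17.4 to 19.01), against 68.9 CPM at ss8, a log2 fold of -1.86, with 406 of 7493 measured genes lower. Here 12 cells (10.7%, 5.66 to 17.97) held it, the median was 0 and the highest cell had 517 CPM. At ss15 it was at 40.6 CPM (39.4 to 41.8), with 20 cells (16.9%, 10.7 to 24.96) holding it and the highest at 903 CPM. The log2 fold of ss15 against ss11 was 1.11, while the shares of cells overlap in their intervals. Over all kept cells RIPPLY3 was at 28.8 CPM in ss8, 10.6 CPM in ss11 and 25.6 CPM in ss15 cells. The folds there were -1.36 for ss11 against ss8 and 1.20 for ss15 against ss11, where 0.388% of genes were at least 2-fold higher.

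The pooled RIPPLY3 values rest on a handful of cells. The 3 cells with most RIPPLY3 reads gave 30.3% of them among ss8 GATA3-high cells, 61.2% among those of ss11 and 49.5% among those of ss15. Leaving out the 3 top cells of each group put the ss11 against ss8 fold at -2.62, and leaving out GATA3-high cells with 3 or more crest markers put it at -1.33. Among GATA3-low cells RIPPLY3 was at 10.1 CPM in those of ss8 (20 cells held it), 5.05 CPM in those of ss11 (8 cells) and 11.6 CPM in those of ss15 (9 cells), a log2 fold of -0.88 for ss11 against ss8. The ss15 against ss11 fold there was 1.05, but -0.45 with cells of at least 1000000 reads and 2000 genes, of which 2 of 38 at ss15 and 5 of 86 at ss11 held the gene. RIPPLY3 did not pass the filter on low values in GATA3-low cells between stages, in any ss15 against ss11 comparison, or between the classes at ss11 and ss15, and IRX1 did not pass it between the classes at ss11. RIPPLY3 was also higher in GATA3-high than in GATA3-low cells at ss11 (log2 fold 1.67) and ss15 (1.73, with 1.82% of 6761 genes at least 2-fold higher). With cells of at least 1000000 reads and 2000 genes, of which 8 of 36 GATA3-high and 2 of 38 GATA3-low held the gene, the ss15 value was 4.06.

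**Figure D2:**
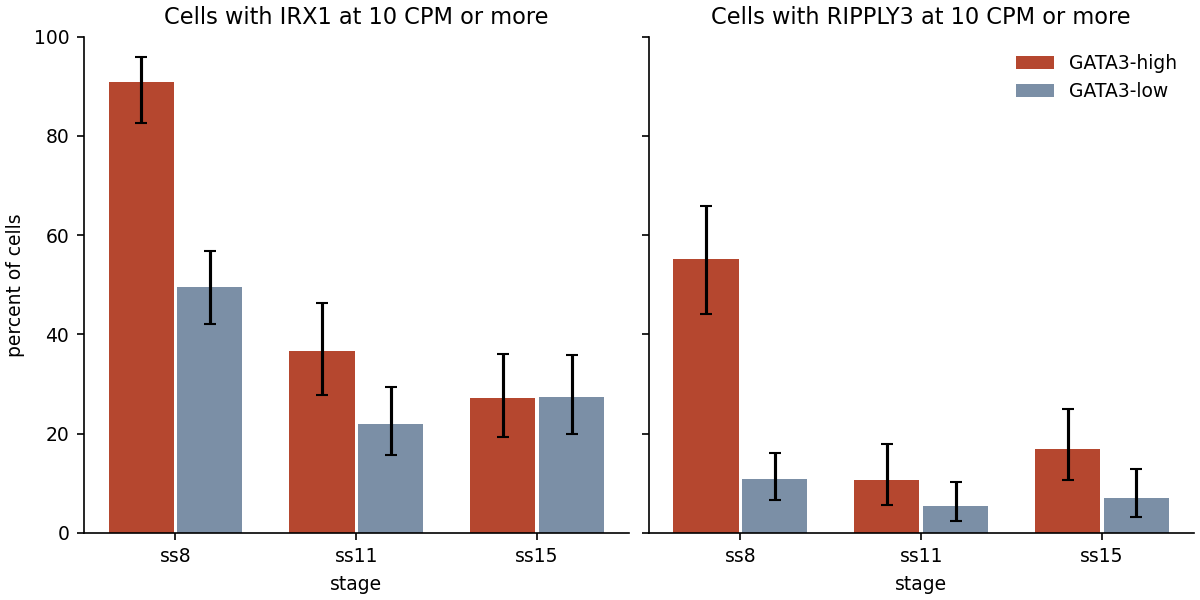
Percent of cells at 10 CPM or more of IRX1 (left) and RIPPLY3 (right) by stage, in GATA3-high and GATA3-low cells. Bars are shares and error bars exact binomial 95% intervals over cells. In GATA3-high cells of ss8, ss11 and ss15, IRX1 is at 90.8, 36.6 and 27.1% and RIPPLY3 at 55.2, 10.7 and 16.9%.

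The lower later values took a different form in the 2 genes. Among GATA3-high cells that held IRX1, its median level was 25.1 CPM at ss11, against 156.2 CPM at ss8, so fewer cells held it and those that did held less. For RIPPLY3 the median over such cells was 128.5 CPM at ss11, against 57.5 CPM at ss8, and 130.3 CPM at ss15. Fewer cells held RIPPLY3 at the later stages, but the median of the cells that did was not lower. The quartiles of those cells were 43.05 and 226.8 CPM at ss11, against 28.1 and 161.1 CPM at ss8. With every cell thinned to 500000 reads, IRX1 was held by 36.6% of ss11 and 94.1% of ss8 GATA3-high cells and RIPPLY3 by 10.7% and 56.5%, all within the unthinned intervals. Thinning equals the reads but not the genes per cell. The thinned GATA3-high cells still had a median of 5229.5 genes at ss11 and 7667 at ss8. The part of this difference in the shares was not tested.

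**Figure D3:**
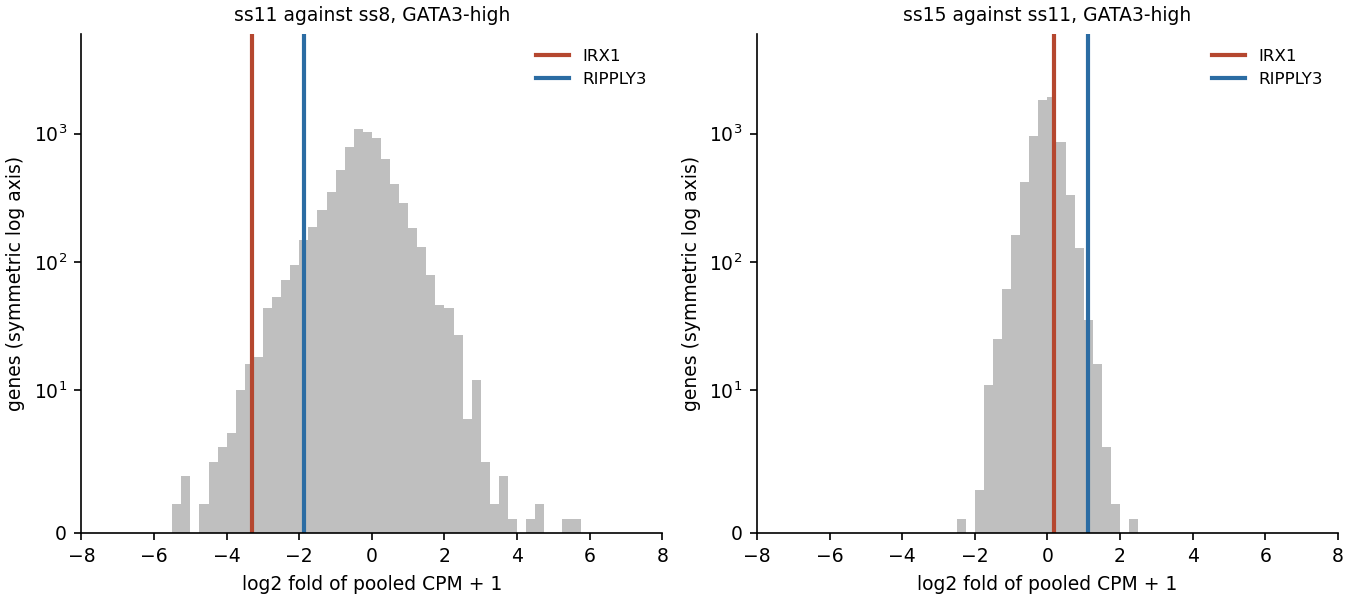
Log2 folds of pooled CPM + 1 over all measured genes in GATA3-high cells, ss11 against ss8 (left) and ss15 against ss11 (right), as counts of genes on a symmetric log axis. Coloured lines mark IRX1 (-3.30 and 0.18) and RIPPLY3 (-1.86 and 1.11), and in the ss15 against ss11 panel both genes lie under the low-value filter of the grey histogram.

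Few cells lay near the GATA3 limit. At ss8, 8 cells had 10 to under 20 CPM of GATA3, with IRX1 from 0 to 245.2 CPM (median 108.3) and RIPPLY3 from 0 to 108.1 CPM (median 0). The 4 cells with 5 to under 10 CPM of GATA3 had IRX1 from 0 to 77.4 CPM (median 42.6) and RIPPLY3 from 0 to 75.5 CPM (median 23.01). At ss11 the counts were 5 and 0 cells and at ss15 6 and 2 cells.

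Within the ss8 cells both genes were higher where GATA3 was higher. IRX1 was at 198.3 CPM in the 52 cells with 100 to under 1000 CPM of GATA3, 117.6 CPM in the 35 cells with 10 to under 100 CPM, and 68.1 CPM below that, and the shares of cells that held it were 98.1, 80 and 49.5%. RIPPLY3 was at 76.5, 57 and 10.1 CPM, with shares of 59.6, 48.6 and 10.8%. Across the kept ss8 cells, log2(CPM + 1) of IRX1 and GATA3 correlated at r = 0.49 and of RIPPLY3 and GATA3 at r = 0.53. These points share 1 stage and differ in depth, and the coefficients are descriptions. At ss11 the coefficients were 0.15 and 0.13, and at ss15 -0.02 and 0.15.

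At ss8 the cells that held RIPPLY3 were almost all cells that held IRX1. Of 68 ss8 cells with RIPPLY3, 63 also held IRX1 (92.6%, 83.7 to 97.6), while IRX1 was held by 52.7% (45.6 to 59.7) of the cells without RIPPLY3. The reverse was not so, since RIPPLY3 was held by 36.8% of the cells with IRX1. Inside the GATA3-high cells, 47 of 48 RIPPLY3 cells held IRX1 (97.9%, 88.9 to 99.9) and 32 of the 39 others did (82.1%, 66.5 to 92.5), intervals that overlap. Inside the GATA3-low cells, 16 of 20 RIPPLY3 cells held IRX1 (80%, 56.3 to 94.3), against 45.8% (38.04 to 53.7) of the others.

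At the later stages the intervals of those shares overlapped. At ss11, 9 of 20 RIPPLY3 cells held IRX1 (45%, 23.1 to 68.5), against 26.9% (21.4 to 32.9) of the cells without RIPPLY3. At ss15, 9 of 29 did (31.03%, 15.3 to 50.8), against 26.7% (20.96 to 33.1). The ss15 share rested on the limit of 10 CPM. With both genes called at 50 CPM, IRX1 was held by 91.7% of RIPPLY3 cells in ss8, 23.1% in ss11 and 5% in ss15. The median IRX1 level of all cells that held it was 118.9, 30.5 and 54.5 CPM, so the higher limit drops many IRX1 cells at the later stages. The matching share in cells without RIPPLY3 was not taken at 50 CPM, so these values do not compare overlap between stages. Across cells the r of the 2 genes was 0.40 for ss8, 0.15 for ss11 and 0.00 for ss15.

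**Figure D4:**
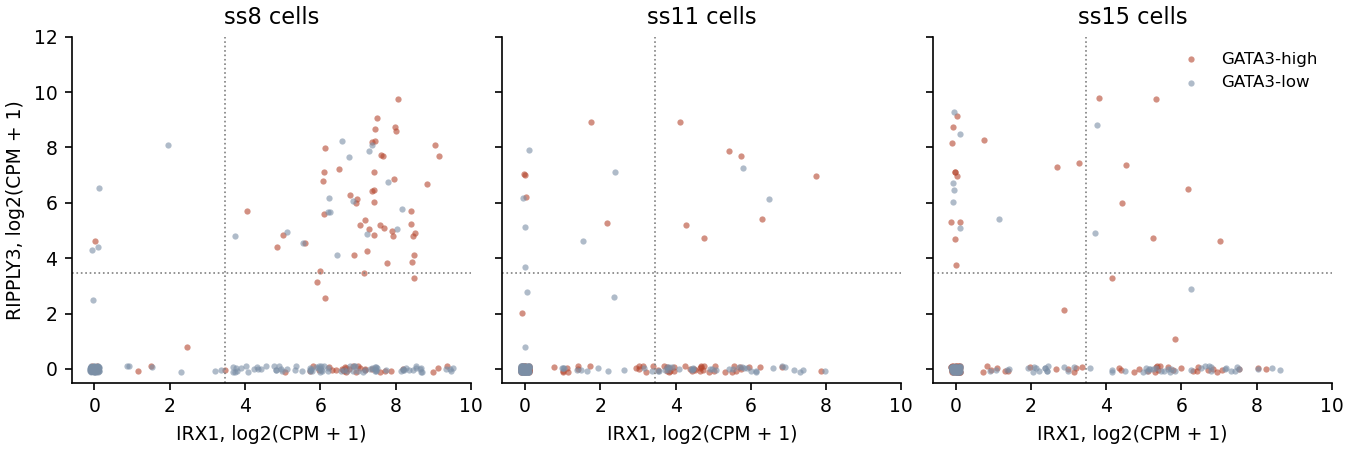
RIPPLY3 against IRX1 in each kept cell as log2(CPM + 1), 1 panel per stage, with GATA3-high and GATA3-low cells in colour, a small random shift to separate points, and dotted lines at 10 CPM. At ss8 the RIPPLY3 cells lie to the right, with IRX1 (63 of 68), and at ss15 most lie at the left edge, with IRX1 in 9 of 29.

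Of the 24356 genes, 332 carry a symbol here, all from the study's own tables, so the named genes most like IRX1 and RIPPLY3 come from a set the study had already picked. Over the kept ss8 cells and 7001 genes, the named genes with the highest r to IRX1 included GATA3 (0.49), EPCAM, an epithelial adhesion molecule (0.47), EZR, the membrane-actin linker ezrin (0.47), and KRT18, a simple-epithelial keratin (0.46). Of genes without a symbol here, ENSGALG00000022557 was at 0.52 and ENSGALG00000016570 at 0.47. RIPPLY3 ranked 31st at 0.40.

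For RIPPLY3 they were CDH1, the cadherin of epithelial junctions (0.59), SOSTDC1, a secreted BMP and Wnt antagonist (0.57), ESRP2, an epithelial splicing factor (0.57), MPZL3, a membrane protein of skin (0.56), and FA2H, a fatty acid hydroxylase (0.53), with ENSGALG00000007690 at 0.64 and ENSGALG00000046693 at 0.60. Of the 50 genes most like each, the ss8 lists shared 36, the ss11 lists 5 and the ss15 lists 0. These lists were drawn from 7001, 6447 and 6322 genes. RIPPLY3 was held by 68, 20 and 29 cells at these stages. The highest r to IRX1 was 0.52, 0.30 and 0.26, and to RIPPLY3 0.64, 0.27 and 0.42. The part of low detection in the later counts was not tested. The named epithelial genes differed among themselves in the order of the stages. In GATA3-high cells EPCAM was at 1049 CPM at ss11 and 943 CPM at ss8, EZR at 510 and 223.9 CPM, and CDH1 at 85.6 and 190.4 CPM. ENSGALG00000022557 was at 22.2 CPM at ss11, against 238.2 CPM at ss8.

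At ss15 the genes most like RIPPLY3 were others. Its highest coefficients, chosen for mention after the values were seen, were with KRT7, a simple-epithelial keratin (0.42), PDLIM1, a PDZ and LIM domain protein of the actin cytoskeleton that serves as an epibranchial marker here (0.39), SPIK5, a protease inhibitor (0.34), and UPK1B, a tetraspanin (0.31), over the kept ss15 cells and 6322 genes. PDLIM1 was not confined to 1 class of cells. It was held by 90.8% of GATA3-high and 77.4% of GATA3-low cells at ss8, 66.1 and 40.7% at ss11, and 52.5 and 40.6% at ss15. The highest coefficient of IRX1 was 0.30 at ss11 (ENSGALG00000016570) and 0.26 at ss15 (ENSGALG00000003681).

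GATA3-high cells were then split by each of 5 otic and 6 epibranchial markers, with cells of 3 or more crest markers set aside. At ss15 the intervals of the RIPPLY3 shares with and without the marker lay apart for PDLIM1 and overlapped for the 10 others. At ss15 RIPPLY3 was at 77.6 CPM in the 55 cells with PDLIM1, of which 18 (32.7%, 20.7 to 46.7) held it, and at 0.0234 CPM in the 52 cells without PDLIM1, of which 0 held it, which allows a share of up to 5.77% by 3 counts (exact upper limit 6.85%). The cells with PDLIM1 also had more genes per cell, a median of 5290 against 3906, at a median of 945943 against 790837 reads, and the part of this in the result was not tested. At ss11 RIPPLY3 was held by 11 of 70 cells with PDLIM1 (28 CPM) and by 1 of 36 without (1.62 CPM). The share at ss11 was higher with the marker for 3 of 6 epibranchial markers, PDLIM1, PRDM1 and ISL1, and no pair of intervals lay apart. It was lower with TFAP2E (7.14%, at 2.36 CPM, against 14.1% and 30.3 CPM without it), with VGLL2 (3.70 against 13.9%) and, by little, with NELL1 (10.9 against 11.76%). At ss8 the split was 34 of 60 cells with PDLIM1 and 2 of 7 without. The RIPPLY3 share at ss8 was higher with the marker for 4 of 5 epibranchial and 3 of 5 otic markers, and the pooled level for 3 and 2. ISL1 went the other way, with RIPPLY3 in 3 of 11 cells with it (6.43 CPM) and 33 of 56 without (58.1 CPM).

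NELL1, a secreted epibranchial protein, and PRDM1, a zinc finger repressor, gave the same order at ss15. RIPPLY3 was held by 13 of 51 cells with NELL1 (25.5%, 14.3 to 39.6, at 78.5 CPM) and 5 of 56 without (8.93%, 2.96 to 19.6, at 6.59 CPM). It was held by 14 of 52 cells with PRDM1 (26.9%, 15.6 to 41.02, at 72.7 CPM) and 4 of 55 without (7.27%, 2.02 to 17.6, at 13.6 CPM). The median number of genes per cell was 5339 with NELL1 and 4348 without it, and 5258 with PRDM1 and 4361 without it, and its part in these shares was not tested. The share of cells with RIPPLY3 was higher with the marker for 6 of 6 epibranchial markers and for 1 of 5 otic markers at ss15. Genes per cell were also higher with each epibranchial marker (for ISL1 a median of 5252 with and 4449 without it). Among otic markers they were higher with DACT2 (5823 against 4832), the 1 with the higher share, and with LMX1A (5120 against 4894.5). They were lower with SOX8, SOX10 and SOHO-1, and the part of genes per cell in this contrast was not tested. For ISL1 the shares were 19.05% with and 15.4% without the marker, for TFAP2E 21.4 and 15.2%, and for VGLL2 19.4 and 15.5%. The intervals overlap for these 3 markers as for NELL1 and PRDM1. Pooled levels were the other way for ISL1 (25.8 CPM with and 54.2 CPM without it) and VGLL2 (40.5 and 44.3 CPM).

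Among otic markers, the ss11 values of RIPPLY3 were lower with SOHO-1 and with SOX10, a SoxE factor of otic placode and crest, and higher with DACT2, in each case with intervals of the shares that overlap. It was held by 2 of 46 cells with SOHO-1 (1.81 CPM) and 10 of 60 without (33.9 CPM), and by 3 of 62 cells with SOX10 (3.42 CPM) and 9 of 44 without (43.6 CPM). With DACT2 the share was 16.3% (at 31.3 CPM), against 7.94% (at 10.7 CPM) without it. The shares were close for SOX8 (11.1% with and 12% without it) and LMX1A (10.4 and 12.1%). At ss15 it was held by 5 of 52 cells with SOHO-1 (9.62%, 3.20 to 21.03) and 13 of 55 without (23.6%, 13.2 to 37.02), and by 9 of 58 with SOX10 and 9 of 49 without.

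**Figure D5:**
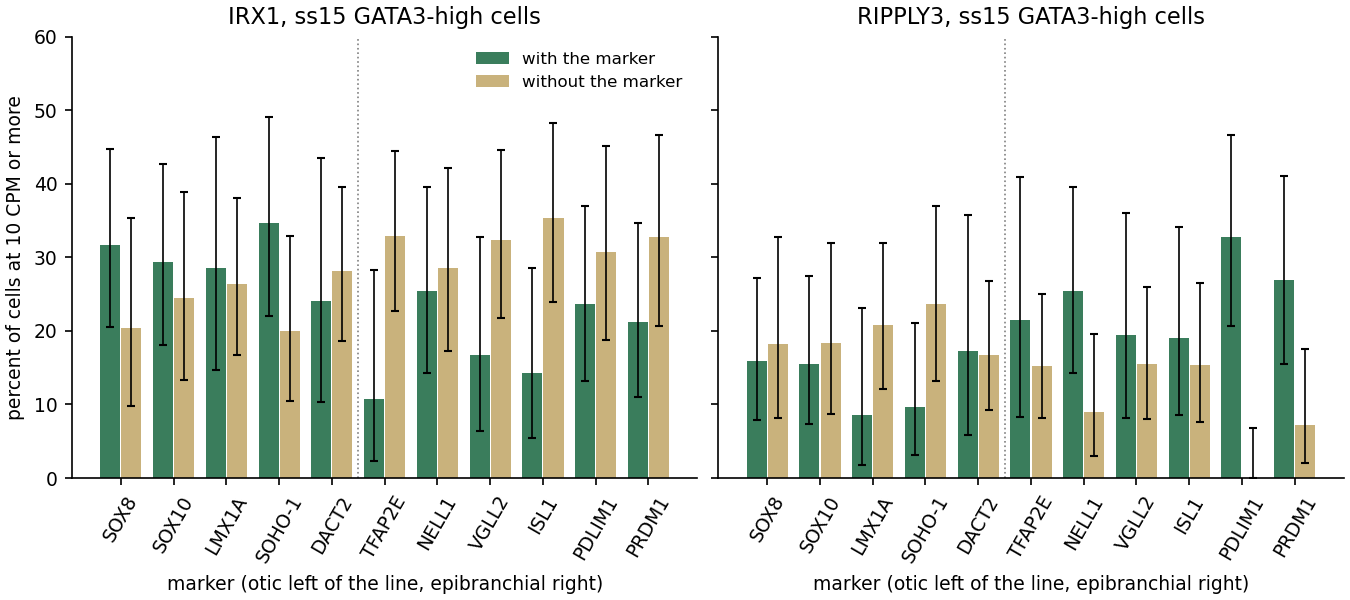
Percent of ss15 GATA3-high cells (without 3 or more crest markers) at 10 CPM or more of IRX1 (left) and RIPPLY3 (right), in cells with and without each otic and epibranchial marker. Bars are shares and error bars exact binomial 95% intervals. RIPPLY3 is at 32.7% with PDLIM1 and 0% without it, and the IRX1 share is lower with each of the 6 epibranchial markers than without it.

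Among these GATA3-high cells IRX1 leaned the other way at ss15. Its share was lower in the cells with the marker for all 6 epibranchial markers and higher for 4 of 5 otic markers, DACT2 being the exception. It was held by 3 of 28 cells with TFAP2E (10.7%, 2.27 to 28.2, at 5.61 CPM) and 26 of 79 without (32.9%, 22.7 to 44.4, at 24.5 CPM). With ISL1, a LIM homeobox factor of epibranchial precursors, it was held by 6 of 42 cells (14.3%, 5.43 to 28.5, at 6.37 CPM), against 23 of 65 without (35.4%, 23.9 to 48.2, at 28.1 CPM). The intervals of each pair overlap, and the splits divide the same cells. By pooled level at ss15, IRX1 was higher with 1 of 6 epibranchial and 4 of 5 otic markers. At ss11 the IRX1 share was higher with the marker for 5 of 6 epibranchial and 4 of 5 otic markers. The pooled IRX1 level at ss11 was higher with 0 of 6 epibranchial and 5 of 5 otic markers, so share and level differed there. The ss15 lean was not kept in GATA3-low cells, as given under other observations. The markers follow those the study names, so they were not picked blind to these cells.

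At ss8 the pooled IRX1 level was higher with all 5 epibranchial markers that could be split (180.8 to 255.7 CPM with the marker, 99.9 to 171.97 CPM without), and with 1 of 5 otic markers. Some sides were small, with 7 cells without PDLIM1, 13 without NELL1 and 11 with ISL1. The IRX1 share was higher with the marker for 5 of 5 epibranchial and 3 of 5 otic markers. The intervals of the IRX1 shares overlap for each of the 5 epibranchial markers. With TFAP2E, for example, IRX1 was at 216.5 CPM, against 130.9 CPM without it.

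Pooled over cells with crest markers, most of them GATA3-low, the level of either gene was low after ss8. Among cells with 3 or more of the 6 crest markers, IRX1 was at 55.7 CPM in 97 ss8 cells, 8.41 CPM in 57 ss11 cells and 5.14 CPM in 43 ss15 cells, and RIPPLY3 was at 41.1, 1.29 and 5.24 CPM in the same cells. Of these, 51 cells at ss11 and 32 at ss15 were GATA3-low. The GATA3-high ones held IRX1 in 2 of 6 cells at ss11 (33.3%) and 3 of 11 at ss15 (27.3%), against 36.8 and 27.1% of other GATA3-high cells. They held RIPPLY3 in 0 of 6 and 2 of 11 cells (18.2%), against 11.3 and 16.8%. In the cells with both TWIST1 and SIM1, markers of mesoderm, of which there were 2, 5 and 1, neither gene reached 10 CPM. Leaving the crest-marker cells out of the GATA3-high class put IRX1 at 16.6 CPM at ss11, against 179.1 CPM in the 67 cells left at ss8, and RIPPLY3 at 19.2, against 49.7 CPM.

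Of the Iroquois family, of the Ripply family with its T-box and TLE partners, of preplacodal factors and of readouts of FGF and retinoic acid signalling, 9 genes, IRX1 and RIPPLY3 included, had an identifier in the names used here. In GATA3-high cells DLX6 was at 7.52 CPM at ss11 and 44.1 CPM at ss8 (log2 fold -2.41), and DLX3, its fellow distal-less gene, at 23.6 and 11.98 CPM (0.92). TFAP2E was at 23.6 and 33.5 CPM (-0.49), and GATA3 itself, which chose the cells, at 195.9 and 172.7 CPM (0.18). FGF8, a ligand of otic induction, was at 34.1 and 8.32 CPM (1.91). CYP26A1, which degrades retinoic acid, was at 15.2 and 20.2 CPM (-0.39), and TBX5, a T-box factor, was at 0.767 and 3.74 CPM, under the filter on low values. Of the 6 genes measured there besides IRX1 and RIPPLY3, 1 was at least 2-fold lower and 1 at least 2-fold higher at ss11, where of all measured genes 17% were at least 2-fold lower and 7.3% at least 2-fold higher.

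IRX1 overlaps 1 long non-coding RNA locus in the RefSeq annotation of assembly GRCg7b and RIPPLY3 overlaps none. The library method keeps no strand, so reads of IRX1 and of an overlapping transcript cannot be told apart.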

How the data were processed

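SmartSeq2 libraries of single EGFP+ cells were trimmed by the authors with cutadapt 2.10, aligned with HISAT2 2.2.1 to galGal6 with a GFP sequence added, handled with SAMtools 1.10 and counted per gene with HTSeq 0.12.4, per the labels and methods. The deposited table holds these raw counts of 24356 genes in 858 cells, with 0 columns left unmapped, beside a count of GFP reads. Another deposited file (unit other) gives the stage of each cell, which matched the labels. Counts were summed over cells and divided by total counts (CPM). Folds were taken on log2(CPM + 1). A gene entered the background of folds at 20 CPM pooled and 10 CPM in 20% of cells in either group. No doublet caller was run, since the sort gated on single events. Python 3.11.15, scipy 1.17.1 and, for TMM factors, edgeR 4.0.16 were used, and the functions for folds and correlations were tested on simulated data.

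The kept cells numbered 273 at ss8 (87 GATA3-high and 186 GATA3-low), 262 at ss11 (112 and 150) and 246 at ss15 (118 and 128). With 1 sample a stage no test between groups was made, and the 95% intervals cover counting error only. The precision of every level is set by the 507328 to 7343424 reads per kept cell and by the number of cells. IRX1 and RIPPLY3, the marker lists and the gene lists were chosen with earlier results of these data known. Gene symbols came from the study's supplementary tables, which named 24 of 28 markers. The text names IRX1, RIPPLY3, GATA3, listed genes with an identifier, and per gene the 5 symbols and 2 unnamed genes most correlated at ss8, of which 1 is not reported here. The alternatives were thinning to 500000 reads, limits of 1000000 reads and 2000 genes, separate near-identical libraries, mean CPM, each ss8 plate left out, pseudocounts of 0.1 and 10 CPM, TMM scaling, GATA3 limits of 5, 20 and 50 CPM, detection at 1 and 50 CPM, other background filters and Spearman correlation. The crest-marker and top-cell exclusions were added after seeing the data. The sequencing instrument differs between the series description, which names 1 for all stages, and the study's methods, which were followed.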

Additional observations from a re-analysis of the deposited data

Results flagged for a closer look

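IRX1 was higher in GATA3-high than in GATA3-low cells at ss8, on each of the 3 plates (log2 folds of 0.88, 1.13 and 1.73), and the other way round at ss15 (log2 fold -0.47, 18.4 CPM in GATA3-high and 25.8 CPM in GATA3-low cells). The difference between the stages was not tested. The shares of cells with IRX1 at ss15 were 27.1% and 27.3%.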

How the results depend on the processing

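The ss11 against ss8 folds of both genes kept their direction in all kept, GATA3-high and GATA3-low cells under each alternative run. So did the GATA3-high against GATA3-low folds at ss8, ss11 and ss15. A fold counted as moved when it left the SD over the 3 ss8 plates (where ss8 entered) or otherwise its 95% counting interval, which is narrow, and 54 values moved and 2 reversed. Where a cause is not in the alternative itself, the cause was not tested. No value moved with near-identical libraries kept separate or with a GATA3 limit of 5 CPM. Leaving out each ss8 plate, which is set here against the spread of the same plates and so says nothing of stability, gave -3.35 to -3.26 for IRX1 and -1.99 to -1.55 for RIPPLY3 (ss11 against ss8, GATA3-high). With a pseudocount of 10 CPM, the IRX1 log2 fold was -2.15 (all kept cells), -2.76 (GATA3-high) and -1.73 (GATA3-low) for ss11 against ss8, 0.39 (all kept cells) and 0.60 (GATA3-low) for ss15 against ss11, and -0.33 (ss15) for GATA3-high against GATA3-low. The RIPPLY3 fold was then -0.42 (GATA3-low) for ss11 against ss8, 0.79 (all kept cells), 0.84 (GATA3-high) and 0.52 (GATA3-low) for ss15 against ss11, and 1.97 (ss8), 0.91 (ss11) and 1.23 (ss15) for GATA3-high against GATA3-low. With a pseudocount of 0.1 CPM, the RIPPLY3 log2 fold was 1.26 (all kept cells) and 1.18 (GATA3-low) for ss15 against ss11, and 1.83 (ss11) for GATA3-high against GATA3-low. With cells of at least 1000000 reads and 2000 genes, the IRX1 log2 fold was -2.97 (GATA3-high) for ss11 against ss8, 0.073 (all kept cells), -0.46 (GATA3-high) and 0.53 (GATA3-low) for ss15 against ss11, and 0.68 (ss11) and -0.32 (ss15) for GATA3-high against GATA3-low. For RIPPLY3 it was 1.70 (all kept cells), 1.84 (GATA3-high) and -0.45 (GATA3-low) for ss15 against ss11, and 1.77 (ss11) and 4.06 (ss15) for GATA3-high against GATA3-low. With TMM scaling, the IRX1 log2 fold was -3.20 (GATA3-high) for ss11 against ss8. With cells thinned to 500000 reads, the IRX1 log2 fold was 0.65 (all kept cells) and 0.31 (GATA3-high) for ss15 against ss11. The RIPPLY3 fold was then 1.01 (GATA3-high) and 1.35 (GATA3-low) for ss15 against ss11, and 1.34 (ss15) for GATA3-high against GATA3-low. With the mean of CPM over cells, the IRX1 log2 fold was 0.71 (all kept cells), 0.40 (GATA3-high) and 0.96 (GATA3-low) for ss15 against ss11, and -0.34 (ss15) for GATA3-high against GATA3-low. For RIPPLY3 it was 1.01 (GATA3-high) and 1.30 (GATA3-low) for ss15 against ss11, and 1.40 (ss15) for GATA3-high against GATA3-low. With a GATA3 limit of 20 CPM, the RIPPLY3 log2 fold was 1.88 (ss15) for GATA3-high against GATA3-low. With a GATA3 limit of 50 CPM, the IRX1 log2 fold was 0.34 (ss11) and -0.33 (ss15) for GATA3-high against GATA3-low. The RIPPLY3 fold was then 2.001 (ss11) and 2.05 (ss15) for GATA3-high against GATA3-low. Without the 3 cells with most reads of the gene in each group, the IRX1 log2 fold was -3.62 (GATA3-high) for ss11 against ss8. For RIPPLY3 it was -2.62 (GATA3-high) and -1.58 (GATA3-low) for ss11 against ss8, 1.29 (all kept cells), 1.42 (GATA3-high) and 0.71 (GATA3-low) for ss15 against ss11, and 1.85 (ss11) and 2.55 (ss15) for GATA3-high against GATA3-low. Without GATA3-high cells that held 3 or more crest markers, the IRX1 log2 fold was -0.39 (ss15) for GATA3-high against GATA3-low. The RIPPLY3 fold was then -1.33 (GATA3-high) for ss11 against ss8, and 2.19 (ss8) for GATA3-high against GATA3-low. This exclusion left crest-marker cells in the GATA3-low class, so its folds between the classes compare unlike sides. Without such cells on either side, IRX1 in GATA3-high and GATA3-low cells was at 179.1 and 87.5 CPM (ss8), 16.57 and 16.37 CPM (ss11), and 19.5 and 33.8 CPM (ss15). RIPPLY3 was then at 49.7 and 5.22 CPM (ss8), 19.2 and 7.01 CPM (ss11), and 42.96 and 15.5 CPM (ss15). The 2 reversed values, IRX1 in GATA3-high and RIPPLY3 in GATA3-low cells for ss15 against ss11, are those at -0.46 and -0.45.

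The share of genes at least 2-fold lower in ss15 against ss11 GATA3-high cells was 0.682% with a minimum of 50 CPM and 5.26% with 1 read in each group, and that of genes at least 2-fold higher 0.438% and 4.47%. With detection at 50 CPM, 5% of ss15 RIPPLY3 cells also held IRX1. Of the shares of cells, 0 moved with thinning, 6 with detection at 1 CPM and 11 with detection at 50 CPM. Of the 20 genes most like each gene at ss8, 17 were again among the 20 with Spearman correlation and 19 with thinned cells, for IRX1 as for RIPPLY3. No paired analysis was possible because each stage is 1 sample and cell numbers only name cells. The number of cells that held RIPPLY3 at ss11 and ss15 and the use of 1 sample a stage limit every later value.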

Other observations

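The 20 ss8 cells that were GATA3-high and also held 3 or more crest markers had a pooled RIPPLY3 level of 141.7 CPM, with 12 cells (60%, 36.1 to 80.9) at 10 CPM or more, against 49.7 CPM and 36 of 67 (53.7%, 41.1 to 66) in the GATA3-high cells without them. The 3 cells with most RIPPLY3 reads gave 61.8% of its reads in the 20 cells. IRX1 in the same cells was at 120.9 CPM, against 179.1 CPM. Among GATA3-low cells the 77 with crest markers had RIPPLY3 in 19.5% (11.3 to 30.1), against 4.59% (1.51 to 10.4) of those without. The median number of genes per cell was 8062 in the 20 cells and 7747 in the 67. Among GATA3-low cells it was 7532 in the 77 and 6784 in those without crest markers. The part of genes per cell in these shares was not tested.

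In ss15 GATA3-low cells without crest markers, a split looked at after the values were seen, IRX1 was held by 3 of 19 cells with SOX10 (15.8%, 3.38 to 39.6, at 6.88 CPM) and by 30 of 77 without it (38.96%, 28.05 to 50.8, at 40.4 CPM). The IRX1 share there was also lower with SOHO-1 (12.5 against 38.75%), SOX8 (26.3 against 39.7%) and LMX1A (33.3 against 34.6%), and higher with DACT2 (47.4 against 31.2%). This is not the order of the GATA3-high cells. Of epibranchial markers it was higher with NELL1 (38.7 against 32.3%), ISL1 and VGLL2, and lower with TFAP2E, PRDM1 and PDLIM1. RIPPLY3 was held there by 7 of 41 cells with PDLIM1 (36.1 CPM) and 1 of 55 without (0.701 CPM), which is the order of the GATA3-high cells.

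At ss8, 31 kept cells had under 5 EGFP reads per 500000. IRX1 was at 102.8 CPM in the cells above that limit and 69.8 CPM in those below it, and RIPPLY3 at 30.7 and 11.4 CPM. Within GATA3-high cells, of which 4 lay below the limit, IRX1 was at 172.5 CPM above and 2.65 CPM below it, and RIPPLY3 at 71.1 and 4.502 CPM. Within GATA3-low cells the values were 66.7 and 77.6 CPM for IRX1 and 9.80 and 12.2 CPM for RIPPLY3. The ss8 order of GATA3-high cells did not hold throughout at later stages. Above and below the limit, IRX1 in GATA3-high cells was at 18.1 and 7.71 CPM at ss11 (22 cells below), and RIPPLY3 at 14.9 and 31.97 CPM. At ss15 (27 cells below) IRX1 was at 13.4 and 38.6 CPM, and RIPPLY3 at 45.9 and 19.3 CPM.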
